A study of Mus musculus with 8 samples.

Results

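Oxidative phosphorylation was examined gene by gene in single cells of the mouse heart. The genes were chosen by symbol: subunits and assembly factors whose names start with Nduf, Uqcr, Atp5, Sdha to Sdhd, or Cox4 to Cox8, and the protein-coding genes of the mitochondrial genome. The rule matched 109 of the 27998 genes counted, and 107 of these had a UMI (unique molecular identifier, 1 per captured RNA molecule) in at least 5 barcodes. Of the 107, 94 lie in the nuclear genome and 13 in the mitochondrial genome. Assigned by symbol, the nuclear genes comprise 38 of complex I, 4 of complex II, 8 of complex III, 16 of complex IV, 15 of complex V and 13 assembly factors or related genes. The testis-type isoforms Cox7b2 and Cox8c had too few barcodes and are the 2 left out.

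The cells came from left ventricles of male C57BL/6 mice, with no genetic modification named, subjected to ischemia–reperfusion (IR) or sham surgery. In IR the left anterior descending artery was tied and then released. The labels title the groups IR0h and IR6h, with 4 samples each and 3 hearts pooled per sample, and their protocol describes tissue collected 6 h after IR or sham, so the 0 h library is read here as sham hearts, which no label states outright. The 4 samples of a group share 1 matrix with no map from cells to samples, so each condition is 1 library, every difference below compares 2 libraries without a replicate check, and no p-value is given.

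The respiratory chain passes electrons from NADH (complex I) and succinate (complex II) through complexes III and IV to oxygen, pumping protons whose return drives ATP synthase (complex V). Complex II is built from nuclear genes alone, whereas the other complexes combine nuclear subunits with a few encoded by the mitochondrial genome, and the heart relies on this system for most of its ATP. Nuclear and mitochondrial genes are transcribed by separate machineries, so they are described apart.

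The 0 h library held 11620 barcodes and 58653308 UMIs (median 4599.5 per barcode) and the 6 h library 8539 barcodes and 75033226 UMIs (median 6244). The filter stated by the study (200 to 2500 genes, at most 30% mitochondrial UMIs) left 9777 barcodes (84.1%) and 4880 (57.1%), because 13.8% of 0 h barcodes and 39.6% of 6 h barcodes exceeded 2500 genes. The cell numbers stated by the study lie between the deposited and the filtered numbers in both conditions. The libraries shared 30 barcode sequences. Cells fell into 22 clusters built without any of these genes. Named from marker genes, 8 classes had at least 50 cells in both libraries. Smooth-muscle-like cells had enough cells at 0 h only, and cardiomyocyte-like cells numbered 41 and 50, below the minimum at 0 h. The tissue label is borne by cells whose summed cardiomyocyte markers reached 89809 per 1000000 UMIs at 0 h and 109584 at 6 h, with none of the markers at 0.

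Levels of nuclear genes are given as CPM, the UMIs per 1000000 nuclear-encoded UMIs of the class, and those of mitochondrial genes are percent, or UMIs per 1000000, of all UMIs of the class. UMIs count the 3′ ends of molecules and are not divided by length. Brackets give 95% exact intervals, which cover counting error only. A gene was compared where it had at least 50 UMIs over both libraries in a class, and was counted as higher or lower where the levels differed by at least 1.5-fold.

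The 94 nuclear genes together had a lower level and the 13 mitochondrial genes a higher level in the 6 h library in each of the 8 classes. In macrophage/monocyte-like cells (3460 and 894 cells) the nuclear sum was 18672 CPM at 0 h and 14790 at 6 h, a log2 ratio of −0.34 [−0.35, −0.32]. Without the limit of 2500 genes per cell, which removed 39.6% of the 6 h barcodes, the ratio was −0.17. Over the same cells the mitochondrial part was 3.097% of UMIs at 0 h and 6.41% at 6 h, a log2 ratio of 1.05 [1.04, 1.06]. The directions were thus opposite within the same cells.

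Neutrophil-like cells (247 and 2380 cells) had the lowest nuclear sum, 8894 at 0 h and 5894 at 6 h, with a log2 ratio of −0.59 [−0.64, −0.55]. Their mitochondrial part was 3.40% and 4.17%. In the lymphoid classes the nuclear sum was 17421 and 14266 in B-cell-like cells, 16863 and 14056 in T-cell-like cells, and 25336 and 17850 in NK-cell-like cells. Their log2 ratios were −0.29, −0.26 and −0.51. The mitochondrial part moved from 5.32% to 9.54% in B-cell-like, from 4.48% to 7.81% in T-cell-like and from 3.72% to 7.23% in NK-cell-like cells. The lymphoid classes therefore shared the direction but not the size of the nuclear difference.

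Among stromal classes, fibroblast-like cells (2959 and 226 cells) had nuclear sums of 18948 and 13727 and mitochondrial parts of 3.57% and 7.90%, with log2 ratios of −0.46 and 1.15. Without the limit on genes per cell (3655 and 1711 cells) these ratios were −0.22 and 0.46, so the size of the fibroblast difference, and its place among the classes, depended on that filter. Pericyte-like cells had nuclear sums of 32511 and 22826 and mitochondrial parts of 5.90% and 11.04%. Endothelial-like cells had nuclear sums of 22683 and 18667 and mitochondrial parts of 12.5% and 15.1%, a mitochondrial log2 ratio of 0.27. The contractile cells stood highest in nuclear genes. Smooth-muscle-like cells reached 53279 at 0 h, and cardiomyocyte-like cells 130771 at 0 h and 160216 at 6 h, with mitochondrial parts of 13.2% and 11.2%. In the few cardiomyocyte-like cells both summed parts thus lay on the other side from the 8 compared classes. Their median mitochondrial share per cell was 11.7% at 0 h and 12.1% at 6 h, so the mitochondrial direction depended on the measure. Over the 18 combinations of class and library, the nuclear and mitochondrial parts were only weakly related (Pearson 0.34, Spearman 0.30, a description over points that share 2 libraries).

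**Figure D1:**
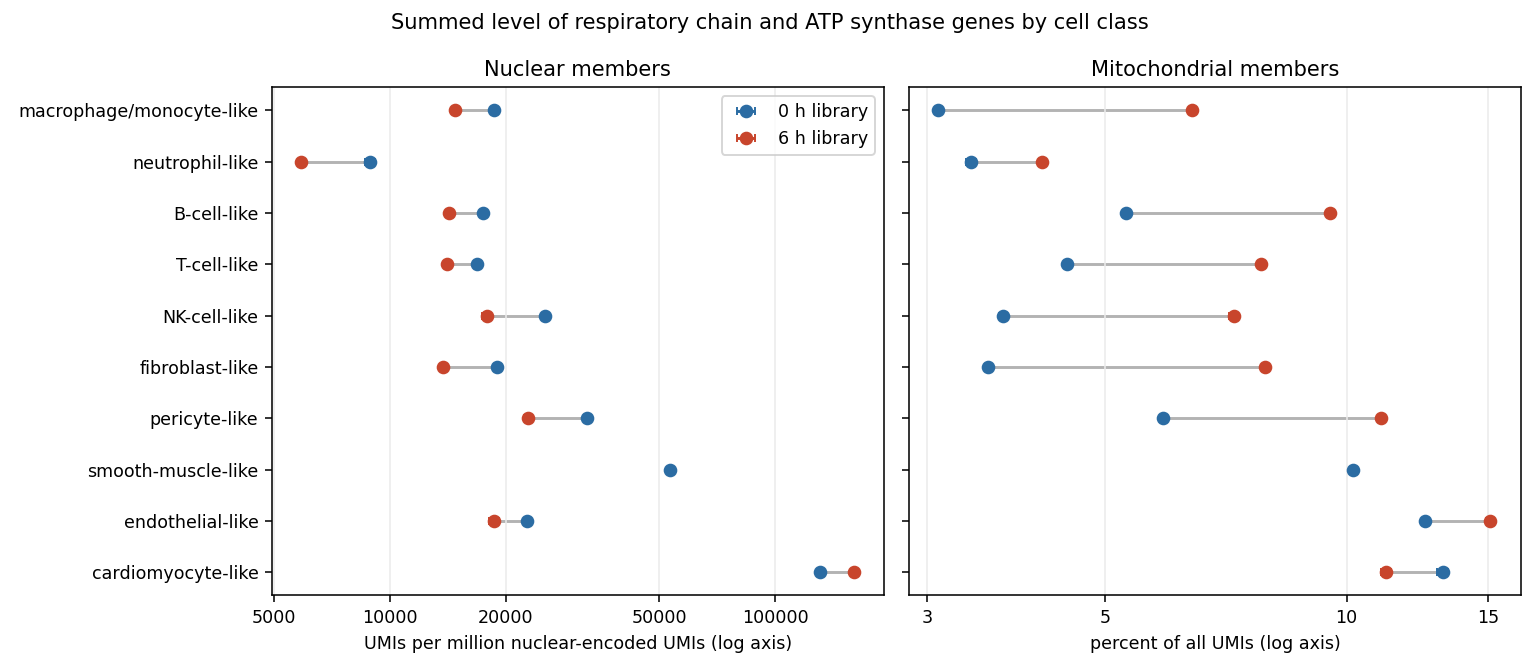
Nuclear genes (UMIs per 1000000 nuclear-encoded UMIs) and mitochondrial genes (percent of all UMIs) by class in the 0 h and 6 h libraries, with exact 95% intervals for counting error. Each compared class is lower at 6 h in the nuclear panel and higher at 6 h in the mitochondrial panel; neutrophil-like cells are lowest in nuclear genes, 8894 and 5894.

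Several measurements moved with these differences. For macrophage/monocyte-like, neutrophil-like, B-cell-like and fibroblast-like cells, different clusters held most cells in the 2 libraries (in order, cluster 2 at 0 h and 12 at 6 h, 16 and 1, 4 and 7, 0 and 17). In the 10 clusters with at least 50 cells in both libraries, the nuclear sum was lower at 6 h in 10 (log2 ratio −0.51 to −0.19) and the mitochondrial part higher in 10 (0.27 to 1.18). RNA of cardiomyocytes was found in every class, with summed marker levels of 98.6 to 1269 at 0 h and 32.8 to 496 at 6 h outside the cardiomyocyte-like cells. Scaled by the ratio in cardiomyocyte-like cells, these levels correspond to 0.34% to 4.92% of the nuclear sum and 0.05% to 1.49% of the mitochondrial part. That ratio pools the few cardiomyocyte-like cells of both libraries. In those cells it returned 78.8% of their own mitochondrial part at 0 h and 116% at 6 h. Whether free RNA keeps this ratio was not tested. The 6 h library was deeper per barcode, and over all deposited barcodes the median mitochondrial share was 3.46% (quartiles 2.57% to 4.98%) at 0 h and 4.94% (3.39% to 7.64%) at 6 h. Among barcodes over 2500 genes these medians were 2.66% and 4.40%. The share of barcodes over the 30% limit was 0.904% and 2.62%. The part of depth, of the filter and of the cells' makeup in the differences was not tested.

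The difference in the nuclear sum was spread over many genes. In macrophage/monocyte-like cells 29 of 93 compared nuclear genes were lower at 6 h and 3 higher, where 19.2% of all compared genes were lower and 20.9% higher. Without the limit on genes per cell 17 were lower, and no share of all genes was taken in that setting. With the limit, the 93 genes had a median log2 ratio of −0.46, against 0.05 over all genes. In neutrophil-like cells 42 of 78 were lower and 1 higher (all genes 30.1% and 22.4%), with a median of −0.63 against −0.15. In B-cell-like cells 16 of 84 were lower and 3 higher (all genes 8.53% and 17.4%), and in T-cell-like cells 17 of 80 were lower and 1 higher (all genes 9.77% and 14.1%). In NK-cell-like cells 35 of 75 were lower and 1 higher (all genes 16.9% and 27.3%). With the limit on genes per cell, the share of lower genes was above that of all genes in each of these classes, and the share of higher genes below it. Whether this holds without the limit was not tested. The shares of all genes are not matched for transcript length. Among short transcripts alone the excess of lower genes was absent in macrophage/monocyte-like, B-cell-like and T-cell-like cells (values below).

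The stromal classes had the same form. In fibroblast-like cells 39 of 91 were lower and 2 higher (all genes 29.0% and 24.2%), in pericyte-like cells 34 of 83 were lower and 1 higher (all genes 17.4% and 17.8%), and in endothelial-like cells 21 of 78 were lower and 1 higher (all genes 20.9% and 18.0%). The endothelial share lies nearest to its background. Without the limit on genes per cell 22 were lower in fibroblast-like and 21 in pericyte-like cells, with no share of all genes taken in that setting. Of the 73 nuclear genes compared in every class, 44 had a log2 ratio below 0 in each of the 8 classes and 1 had a ratio above 0 in each. No such count was taken over all genes, so these numbers have no background beside them. The 8 comparisons use cells of the same 2 libraries.

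**Figure D2:**
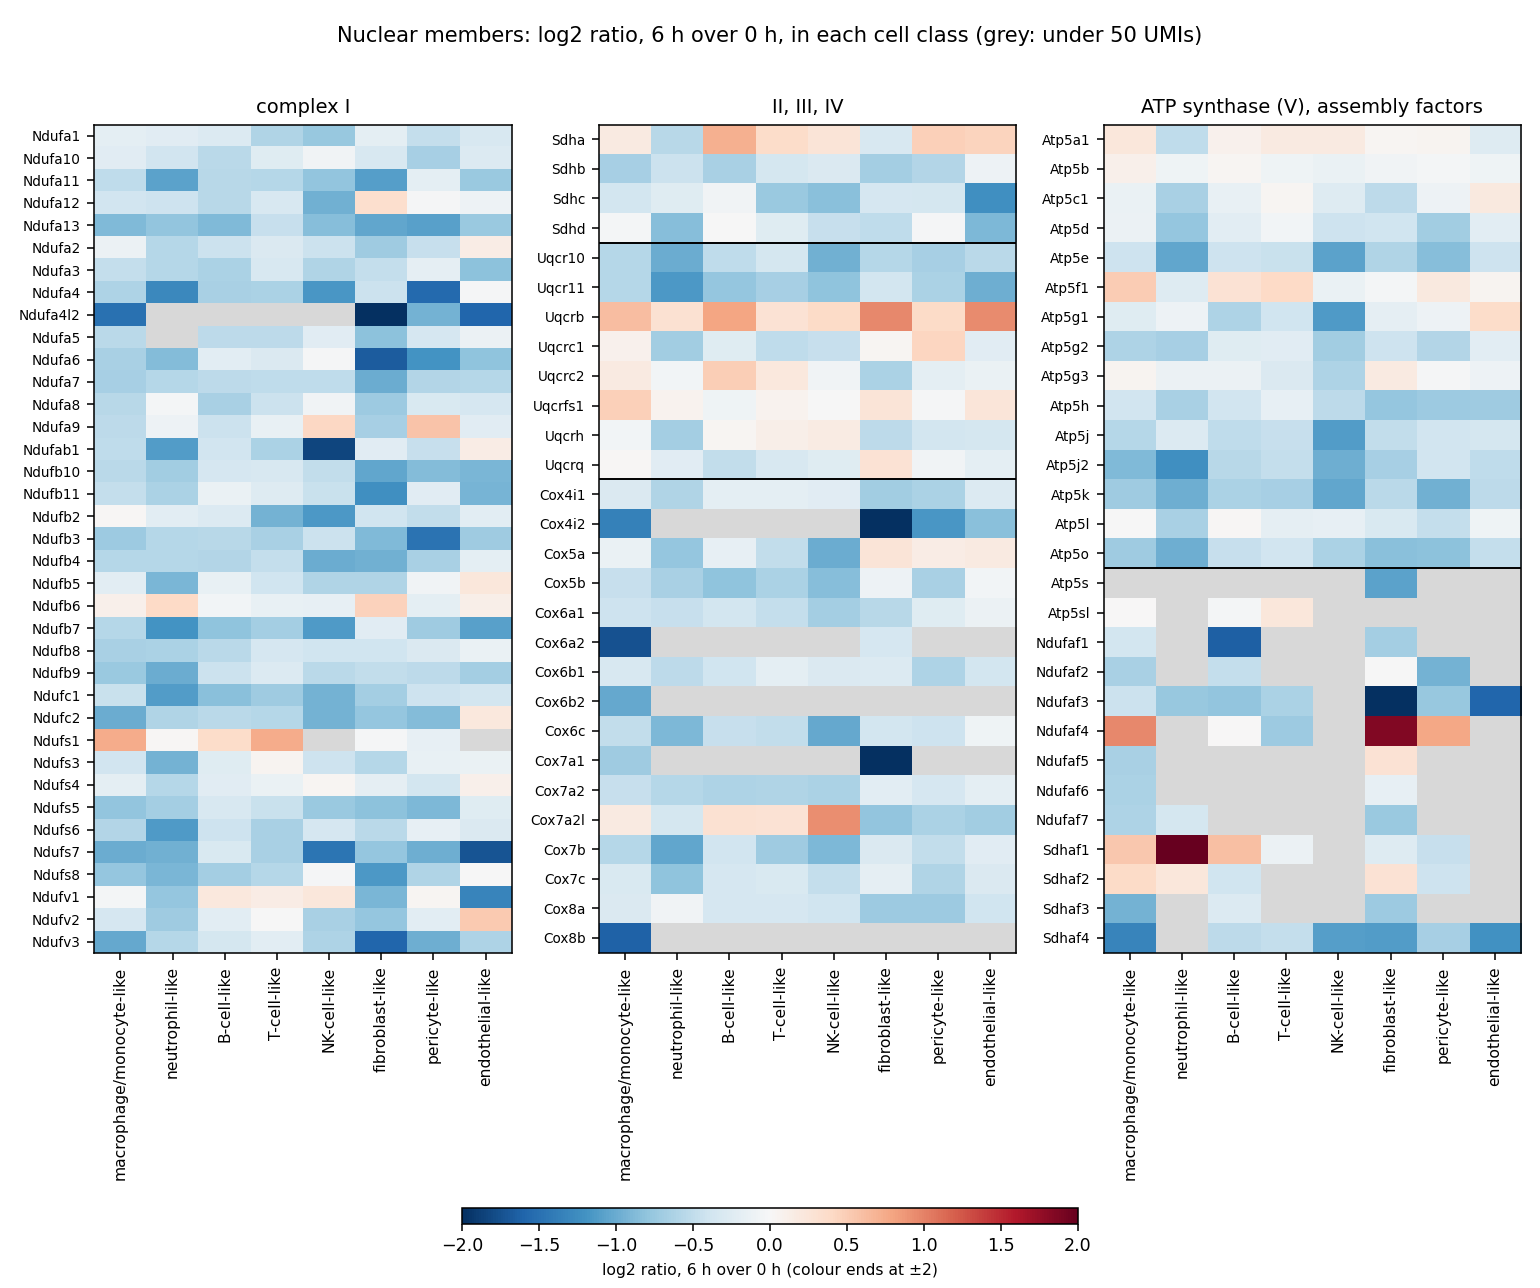
Log2 ratio of the 6 h to the 0 h level for the nuclear genes (rows, by complex, 1 gene not drawn) in the 8 classes (columns), on a color scale from blue (lower at 6 h) to red (higher), with gray for genes under 50 UMIs. Of the 73 genes compared in all classes 44 are below 0 throughout, a count not taken over all genes. Uqcrb, a complex III gene, is the one above 0 throughout, though not with every interval clear of 0.

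Complex I, which oxidizes NADH, had lower summed levels at 6 h in every class, with log2 ratios from −0.73 in neutrophil-like to −0.36 in endothelial-like cells. In macrophage/monocyte-like cells 13 of its 38 genes were lower and 1 higher, with a median of −0.53 (all genes 19.2% and 20.9%). The 38 were assigned by symbol and include Ndufa4 and its relative Ndufa4l2. In pericyte-like cells at 0 h Ndufa4l2 alone made up 2914 of the complex I sum of 12461 CPM. Ndufa13, an accessory subunit also known as GRIM-19, was 385 CPM at 0 h and 209 at 6 h in these cells, −0.88 [−0.98, −0.78]. It was lower by at least 1.5-fold in 7 of 8 classes, with T-cell-like cells between at 305 and 221. Ndufs7, a core subunit that carries an iron–sulfur cluster, was 150 and 75.4 in macrophage/monocyte-like cells (−0.99 [−1.15, −0.83]) and 203 and 61.4 in endothelial-like cells (−1.73 [−2.66, −0.92]). It too passed the fold in 7 of 8 classes, and in B-cell-like cells was 136 and 109. The accessory subunits Ndufc2 (227 and 114) and Ndufv3 (132 and 65.2) had macrophage ratios of −0.99 and −1.02.

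Not all of complex I was lower. Ndufs1, the largest core subunit, was 17.7 and 29.8 in macrophage/monocyte-like cells (0.75 [0.45, 1.05]) and 17.9 and 29.8 in T-cell-like cells, where the interval of its ratio, 0.74 [−0.03, 1.53], included 0. In fibroblast-like cells Ndufs1 was 32.4 and 31.8. The core subunit Ndufv1 had a macrophage ratio of −0.04, inside the fold, but was lower past the fold in 3 of 8 classes (lowest −1.32). Ndufa4, which sits with complex IV in current structures despite its name, was lower past the fold in 6 of 8 classes. It was 845 and 378 in NK-cell-like cells (−1.16 [−1.48, −0.86]), while in endothelial-like cells it was 588 and 576. Ndufab1, the mitochondrial acyl carrier protein, was 170 and 47.7 in NK-cell-like cells (−1.83).

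Complex II, the succinate dehydrogenase, has 4 genes, and in macrophage/monocyte-like cells 1 was lower, a share near the 19.2% of all genes. Sdhb, its iron–sulfur subunit, was 158 and 99.2 in these cells (−0.67 [−0.81, −0.53]), and Sdha, the flavoprotein that holds the active site, was 66.0 and 75.2 (0.19 [0.01, 0.36]). In B-cell-like cells Sdha was 76.8 and 126 (0.71 [0.46, 0.97]) and Sdhb 114 and 72.6. The 2 catalytic subunits of the same enzyme therefore lay on opposite sides of 0 in both classes. Sdhaf4, an assembly factor of complex II, was 41.0 and 16.4 in macrophage/monocyte-like cells (−1.32 [−1.68, −0.98]).

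Complex III, the cytochrome bc1 complex, had the smallest summed difference of the complexes in macrophage/monocyte-like cells. Its summed log2 ratio was −0.01 [−0.05, 0.03] there, and it ranged from −0.57 in neutrophil-like cells to that value. Uqcrb, a subunit that binds ubiquinone, was 198 and 305 in macrophage/monocyte-like cells (0.62 [0.53, 0.71]), 185 and 361 in fibroblast-like cells (0.96 [0.79, 1.13]), 252 and 486 in endothelial-like cells (0.95 [0.60, 1.29]) and 100.3 and 174 in B-cell-like cells (0.79 [0.57, 1.01]). These are the 4 classes in which it passed the fold, and its lowest ratio was 0.28 in T-cell-like cells, where the interval included 0. The Uqcrb interval also included 0 in neutrophil-like (0.30 [−0.42, 1.12]) and NK-cell-like cells (0.39 [−0.05, 0.82]). The Rieske protein Uqcrfs1 was 85.1 and 118 in macrophage/monocyte-like cells (0.48), and the core protein Uqcrc1 101 and 108. Uqcr11, the smallest subunit, was on the other side, with 243 and 164 in macrophage/monocyte-like cells (−0.57 [−0.68, −0.46]) and a ratio past the fold in 6 of 8 classes.

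Complex IV, cytochrome c oxidase, had summed log2 ratios from −0.66 in pericyte-like to −0.25 in endothelial-like cells. Cox4i1, a regulatory subunit and among its most abundant nuclear transcripts, was 957 and 783 in macrophage/monocyte-like cells (−0.29) and 928 and 571 in fibroblast-like cells (−0.70). Cox5b was 422 and 306 in macrophage/monocyte-like cells, and its ratios ran from −0.85 in NK-cell-like cells to −0.05 in endothelial-like cells. Cox5a had ratios on both sides, with 425 and 213 in NK-cell-like cells (interval −1.43 to −0.59) and a ratio of 0.25 [0.02, 0.48] in fibroblast-like cells.

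In ATP synthase the catalytic subunits differed little between the libraries in macrophage/monocyte-like cells, while several other subunits were lower. Atp5b, the catalytic beta subunit, had log2 ratios between −0.14 and 0.10 in the 8 classes, with 411 and 441 in macrophage/monocyte-like cells. Atp5a1, the alpha subunit, was 240 and 282 in those cells (0.23). Atp5f1, the peripheral-stalk subunit b, was 246 and 350 (0.51 [0.43, 0.59]), short of the fold. Against these, in the same cells, Atp5j2 (subunit f) was 434 and 234 (−0.89 [−0.98, −0.80]), Atp5o (the oligomycin-sensitivity protein of the stalk) 243 and 148 (−0.72), and Atp5k (subunit e) 208 and 127 (−0.71 [−0.84, −0.58]). Atp5k passed the fold in 6 of 8 classes.

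Among assembly factors, Ndufaf3 and Ndufaf4, which work together in early steps of complex I assembly, differed in direction in most classes where Ndufaf4 could be compared. Ndufaf4 was 35.0 and 126 in fibroblast-like cells (1.85 [1.54, 2.15]), 14.1 and 27.3 in macrophage/monocyte-like cells (0.96 [0.63, 1.28]) and 72.2 and 124 in pericyte-like cells (0.78 [0.15, 1.38]). In T-cell-like cells Ndufaf4 was lower past the fold, with 38 and 23 UMIs (−0.72 [−1.54, 0.06]). Ndufaf3 was 47.0 and 9.87 in fibroblast-like cells (−2.25 [−3.39, −1.32]) and was lower past the fold in 6 of the 7 classes where it could be compared. Fibroblast-like cells thus held the widest gap between the pair. Other outermost ratios rested on few molecules. Sdhaf1 in neutrophil-like cells had 1 UMI at 0 h and 89 at 6 h (2.18 [−0.33, 7.50]), and Ndufaf1 in B-cell-like cells had 54 and 14 (−1.63).

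Outermost values of single classes included several complex I genes. In T-cell-like cells the accessory subunit Ndufb2 was 85.6 and 44.7 (−0.94 [−1.41, −0.48]). In pericyte-like cells the accessory subunits Ndufb3, 325 and 116, and Ndufa6, 326 and 142, had ratios of −1.48 and −1.20. Ndufa6 was also far lower in fibroblast-like cells, 254 and 80.0 (−1.66). At the upper end, Ndufb6, Ndufa9 and Ndufv2 stood among the 3 highest ratios of a class but stayed inside the fold, for example Ndufb6 in fibroblast-like cells at 0.46 [0.19, 0.73].

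Promoters are shown for 4 genes described above whose values lay far from 0: Atp5k, Uqcr11 and Ndufs7, lower in 6 or 7 classes, and Ndufaf4, higher in fibroblast-like cells. The files hold no binding or accessibility data, so letters alone are given. Each window runs from 250 bases before to 50 bases after the annotated start (RefSeq, GRCm38.p6) and is written 5′ to 3′ on the gene's strand. Capitals mark matches, on either strand, to the NRF1 core GCATGCGC, the ETS element CCGGAAGT, the YY1 element AAGATGGC, the hypoxia core ACGTG, the estrogen-related receptor element AAGGTCA or TATAAA. None of these contains another.

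Atp5k (chr5:108434350-108434649, minus strand; NRF1 core and estrogen-related receptor element): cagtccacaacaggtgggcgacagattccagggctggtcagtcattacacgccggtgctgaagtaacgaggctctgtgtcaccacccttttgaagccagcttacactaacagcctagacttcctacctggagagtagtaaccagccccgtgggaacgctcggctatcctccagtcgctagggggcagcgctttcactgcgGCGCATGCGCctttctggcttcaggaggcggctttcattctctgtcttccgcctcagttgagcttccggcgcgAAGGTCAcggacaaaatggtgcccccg
Uqcr11 (chr10:80406772-80407071, minus strand; NRF1 core, ETS element and hypoxia core): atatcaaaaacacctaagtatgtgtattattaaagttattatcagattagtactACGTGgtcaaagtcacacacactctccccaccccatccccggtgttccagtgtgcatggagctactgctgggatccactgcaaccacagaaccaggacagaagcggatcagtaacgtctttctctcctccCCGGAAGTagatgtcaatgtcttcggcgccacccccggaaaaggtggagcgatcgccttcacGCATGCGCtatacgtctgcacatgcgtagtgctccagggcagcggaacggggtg
Ndufs7 (chr10:80249199-80249498, plus strand; YY1 element and TATAAA): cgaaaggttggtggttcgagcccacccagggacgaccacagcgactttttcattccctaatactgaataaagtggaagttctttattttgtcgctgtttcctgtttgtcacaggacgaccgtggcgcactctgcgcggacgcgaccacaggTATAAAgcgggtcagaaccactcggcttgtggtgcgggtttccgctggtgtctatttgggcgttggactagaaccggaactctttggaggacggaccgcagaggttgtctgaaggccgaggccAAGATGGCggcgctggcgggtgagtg
Ndufaf4 (chr4:24897833-24898132, plus strand; NRF1 core, at 2 places): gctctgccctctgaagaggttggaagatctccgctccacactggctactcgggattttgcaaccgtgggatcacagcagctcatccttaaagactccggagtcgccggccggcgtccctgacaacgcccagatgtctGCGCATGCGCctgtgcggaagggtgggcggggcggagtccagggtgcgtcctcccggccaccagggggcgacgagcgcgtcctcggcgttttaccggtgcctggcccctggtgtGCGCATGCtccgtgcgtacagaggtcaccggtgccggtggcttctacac

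Windows were available for 79 of the 94 nuclear genes, 85 windows in all. The NRF1 core, named for a factor known to drive many respiratory genes, stood in 12 of them (14.1%, against 2.71% of all 32851 windows), and the YY1 element in 12 (14.1% against 2.75%). The estrogen-related receptor element stood in 8 (9.41% against 4.72%), the ETS element in 5 (5.88% against 3.89%), the hypoxia core in 23 (27.1% against 19.6%) and TATAAA in 8 (9.41% against 13.6%). The NRF1 core occurred both in the windows of Atp5k and Uqcr11, lower at 6 h, and in that of Ndufaf4, higher in 3 classes and lower in T-cell-like cells.

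The nuclear genes also have short transcripts. The longest coding transcript had a median of 944.5 nt for these genes and 2703 nt for 21484 annotated genes. In macrophage/monocyte-like cells the log2 ratios of genes under 1000 nt had a median of −0.57 over 50 respiratory genes and −0.48 over 555 genes of any function. From 1000 to 2000 nt the medians were −0.34 (28 genes) and −0.21, and from 2000 nt 0.00 (15 genes, a thin bin) and 0.15. In the 8 classes the median of all genes under 1000 nt lay between −0.56 and −0.28 and that of the short respiratory genes between −0.65 and −0.36. From 2000 nt the all-gene medians lay between −0.07 and 0.37 and those of the few long respiratory genes between −0.62 and 0.00. Under 1000 nt, 20 of 50 respiratory genes were lower in macrophage/monocyte-like cells, against 40.5% of all genes of that length. The counts were 9 of 44 in B-cell-like (24.9%), 10 of 43 in T-cell-like (26.0%) and 23 of 48 in fibroblast-like cells (46.3%). They were 26 of 41 in neutrophil-like (45.9%) and 24 of 43 in NK-cell-like cells (45.6%). Pericyte-like cells had 26 of 46 (33.5%) and endothelial-like cells 14 of 45 (29.1%). The lower level at 6 h was thus measured in short transcripts in general, and the part of length in the respiratory genes' difference was not tested. Cytosolic ribosomal protein genes, which are also short, had a median of 0.17 in macrophage/monocyte-like cells, with 1 of 81 lower and 3 higher (all genes 19.2% and 20.9%). Their median was −0.45 in neutrophil-like cells, with 21 of 80 lower (all genes 30.1%). In NK-cell-like cells it was −0.22, with 10 of 79 lower (all genes 16.9%). In both of these classes the share of lower ribosomal genes was below that of all genes.

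**Figure D3:**
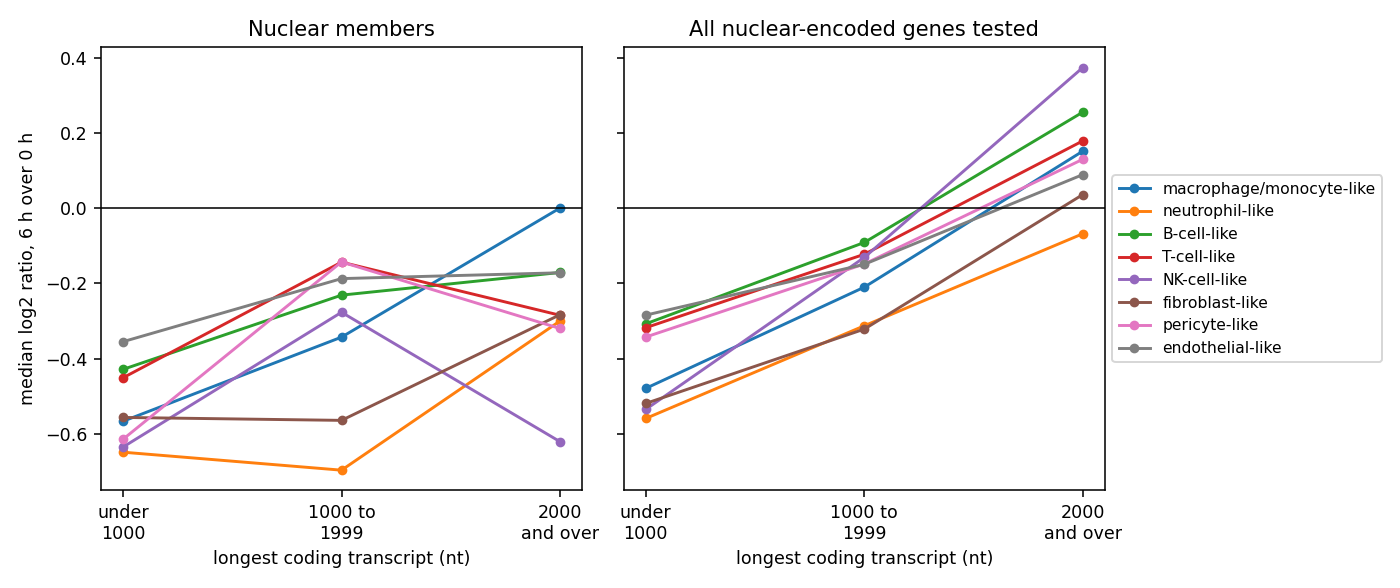
Median log2 ratio of the 6 h to the 0 h level by length of the longest coding transcript, for respiratory nuclear genes and for all compared genes, in the 8 classes (colors). The all-gene median is lowest under 1000 nt in each class, −0.48 in macrophage/monocyte-like cells, where the respiratory genes' median is −0.57; the respiratory panel does not climb with length in every class.

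The 13 mitochondrial genes did not move alike. In macrophage/monocyte-like cells mt-Nd2, a complex I subunit, was 1170 per 1000000 of all UMIs at 0 h and 3978 at 6 h, a log2 ratio of 1.77, and mt-Nd3 was 398 and 1355 (1.77). The ATP synthase subunit mt-Atp6 was 4012 and 12567 (1.65) and the oxidase subunit mt-Co2 3396 and 9436 (1.47). Much smaller ratios were found for the other oxidase subunits, mt-Co1 with 5907 and 8450 (0.52) and mt-Co3 with 9293 and 13551 (0.54). mt-Nd6, encoded on the opposite strand from the others, was 39.4 and 33.3 (−0.24). Over the 8 classes the ratio ranged from 1.16 to 2.28 for mt-Nd2, from 0.90 to 1.79 for mt-Atp6, from −0.60 to 0.56 for mt-Co1 and from −0.34 to 0.54 for mt-Co3. mt-Co1 and mt-Co3 were lower at 6 h in neutrophil-like and endothelial-like cells, the classes with the smallest mitochondrial ratios.

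**Figure D4:**
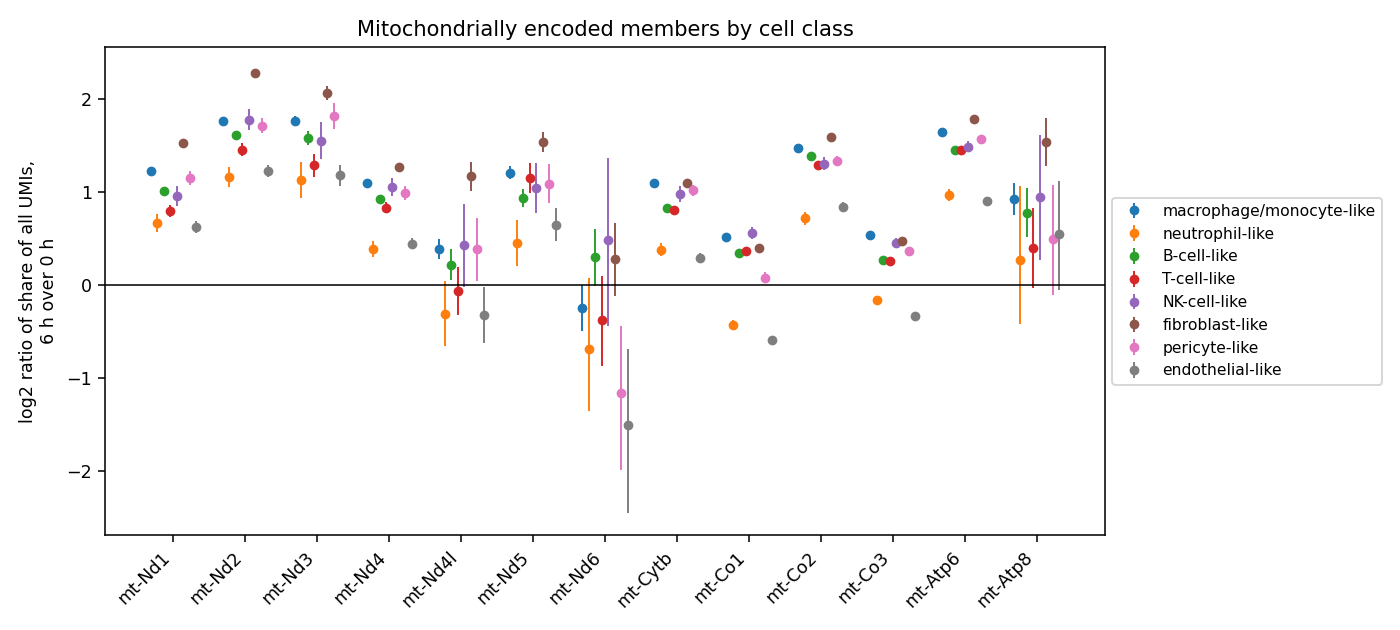
Log2 ratio of the 6 h to the 0 h share of all UMIs for each of the 13 mitochondrial genes (x axis) in the 8 classes (colors), with exact 95% intervals for counting error. mt-Nd2 lies between 1.16 and 2.28, while mt-Co1 (−0.60 to 0.56) and mt-Co3 (−0.34 to 0.54) lie on both sides of 0.

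The makeup of mitochondrial UMIs therefore differed between the libraries in a form shared by the classes. mt-Co3 made up 29.8% to 31.3% of mitochondrial UMIs over the 8 classes at 0 h and 18.9% to 22.8% at 6 h. mt-Co1 made up 18.0% to 19.5% and 10.0% to 14.2%. mt-Atp6 went the other way, with 9.92% to 14.2% and 15.8% to 22.3%, as did mt-Co2 (9.68% to 11.4% and 13.2% to 14.9%), mt-Nd2 (3.49% to 4.07% and 5.69% to 7.88%) and mt-Nd3 (1.15% to 1.36% and 1.70% to 2.56%). The rare mt-Nd6 made up 0.108% to 0.210% and 0.035% to 0.080%. For mt-Co1, mt-Co3, mt-Atp6, mt-Co2, mt-Nd2, mt-Nd3 and mt-Nd6 the ranges of the 2 libraries did not overlap, and for the other mitochondrial genes they did. The 8 classes come from the same 2 libraries and are not replicates. mt-Cytb, the complex III subunit, kept 8.52% to 10.9% and 8.81% to 11.1%. In cardiomyocyte-like cells the shares of mt-Co1 were 19.3% and 9.90%, and those of mt-Nd2 3.85% and 8.55%. The library, its depth and the surgery cannot be told apart here.

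Several subunits have isoforms that mark cell types. Ndufa4l2, a relative of Ndufa4 known as a hypoxia-induced gene, and Cox4i2, the alternative Cox4 isoform known from lung and vascular cells, were concentrated in pericyte-like cells and were among the 10 leading genes of that cluster although neither was used to build it. In pericyte-like cells Ndufa4l2 was 2914 CPM at 0 h and 1507 at 6 h (−0.95 [−1.10, −0.80]), making up 98.6% and 99.0% of Ndufa4 plus Ndufa4l2. Cox4i2 was 2213 and 986 (−1.17), and Cox4i1 1170 and 757. Cox4i2 was thus 65.4% [63.9, 67.0] of Cox4 UMIs at 0 h and 56.6% [52.0, 61.1] at 6 h. Smooth-muscle-like cells at 0 h had 722 for Ndufa4l2, 39.9% of its pair, and 652 for Cox4i2, 24.0% of its pair.

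Thinned to 1000 UMIs per cell, Ndufa4l2 was seen in 89.9% [87.1, 92.4] of pericyte-like cells at 0 h and 62.3% [50.6, 73.1] at 6 h. Cells under that depth, 56 and 16 of this class, were left out, and the unthinned shares were 96.1% and 78.5%. In B-cell-like cells, which should lack it, the thinned shares were 0.372% and 0.142%. Cox4i2 was seen in 85.3% and 48.1% of the thinned pericyte-like cells. Before thinning, the median depth was 1788 and 3145 UMIs in pericyte-like cells and 2081 and 3309 in B-cell-like cells. In fibroblast-like cells Ndufa4l2 was 165 and 26.3 (−2.65) and Cox4i2 had 254 and 2 UMIs, and Ndufa4l2 was 32.4% and 9.30% of its pair. In endothelial-like cells Ndufa4l2 was 14.4% and 5.43% of its pair. Across the 18 combinations of class and library and 12923 genes, the patterns most like Ndufa4l2 were Nrbp2 (Pearson 0.988), Arhgef25 (0.986), Adcy6 (0.980), Trpc1 (0.977) and Plac9b (0.977). Those most like Cox4i2 were Atp1b2 (0.991), Gucy1b3, Notch3 and Rgs4 (0.990 each) and Gucy1a3 (0.989).

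Striated-muscle isoforms were concentrated in cardiomyocyte-like cells. Cox6a2 was 95.9% of Cox6a UMIs at 0 h and 96.8% at 6 h there, Cox8b 64.7% and 78.8% of Cox8, and Cox7a1 44.3% and 50.9% of its group. Of the 3 genes for subunit c of ATP synthase, Atp5g1 held 66.4% and 75.4%. In macrophage/monocyte-like cells Cox6a2 had 160 and 14 UMIs and Cox8b 73 and 7, and these had the lowest ratios of that class, −1.74 and −1.61. They stood beside cardiomyocyte marker levels of 179 and 75.8 in the same cells.

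Cox7a2l, grouped here with Cox7a1 and Cox7a2, differed in direction between classes. It was 267 and 510 in NK-cell-like cells (0.93 [0.62, 1.25]), 679 and 832 in T-cell-like cells (0.29 [0.17, 0.42]) and 465 and 575 in B-cell-like cells (0.31 [0.20, 0.42]). In fibroblast-like cells it was 343 and 199 (−0.79 [−1.01, −0.58]), in pericyte-like cells 317 and 204 (−0.64) and in endothelial-like cells 421 and 260 (−0.70). The ratio was above 0 in 4 of the 8 classes, the 3 lymphoid classes and macrophage/monocyte-like cells. It was below 0 in the 3 stromal classes and in neutrophil-like cells.

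**Figure D5:**
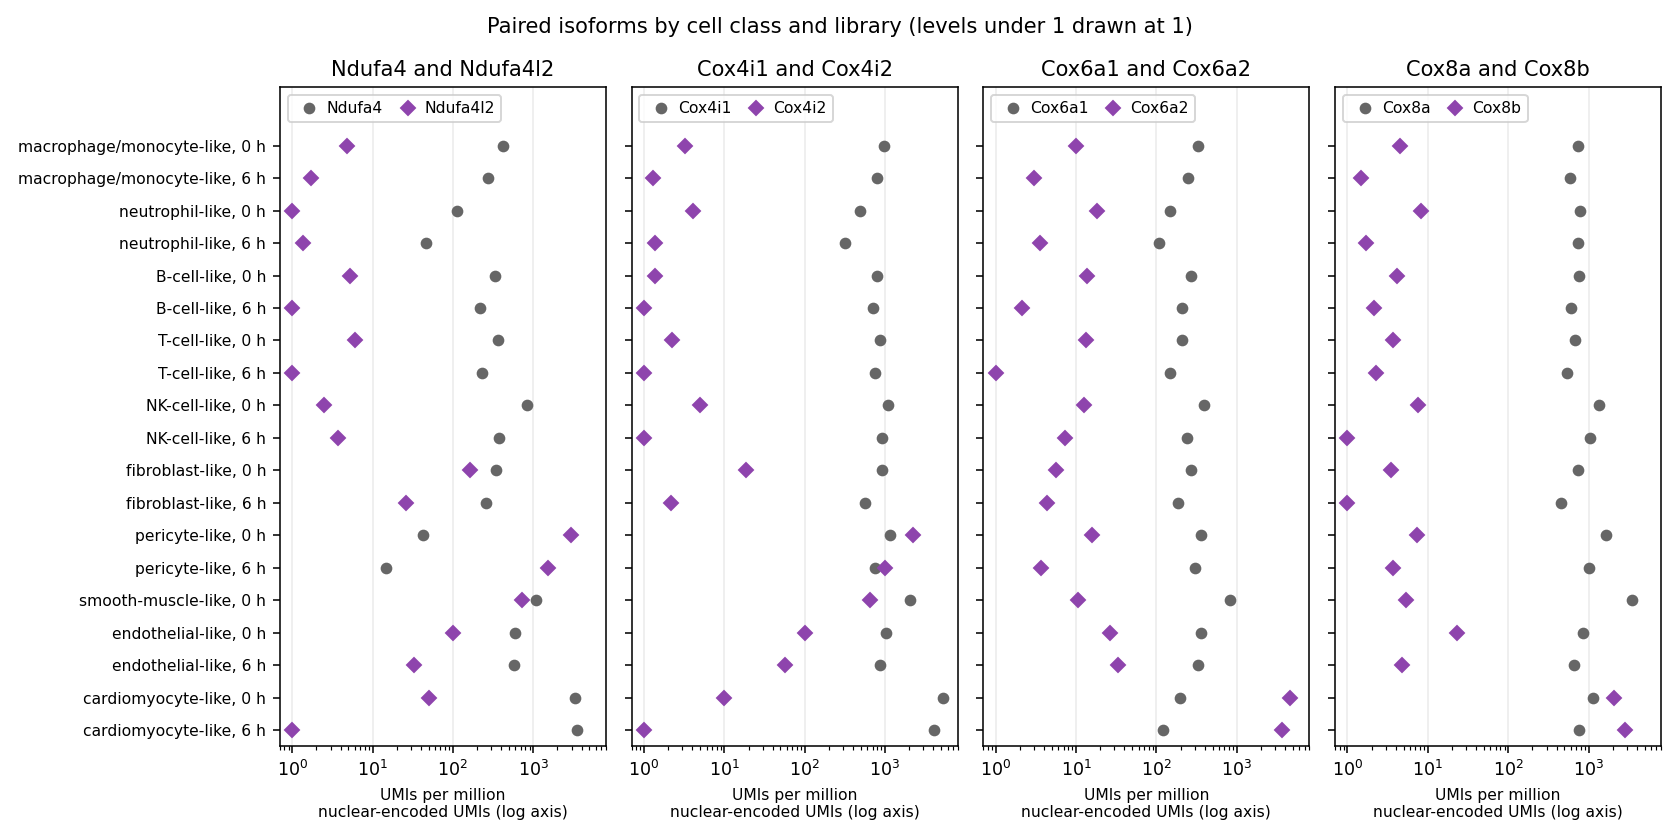
Levels (UMIs per 1000000 nuclear-encoded UMIs, log axis) of 4 isoform pairs by class and library; gray circles are the widespread isoform and purple diamonds the tissue isoform, and levels under 1 are drawn at 1. Ndufa4l2 and Cox4i2 peak in pericyte-like cells, 2914 and 2213 at 0 h and 1507 and 986 at 6 h, and Cox6a2 and Cox8b in cardiomyocyte-like cells.

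The study divides cardiac macrophages into MerTK+CCR2- and MerTK-CCR2+ cells, which here were groups of subclusters assigned by the relative levels of Mertk and Ccr2. Mertk was 33.7 CPM at 0 h and 76.4 at 6 h in MerTK+CCR2- cells, and 1.34 and 9.97 in MerTK-CCR2+ cells. Ccr2 was 54.0 and 82.5 in the first group and 509 and 767 in the second. The names are thus relative, and the first group was not free of Ccr2. Of 14 subclusters, 5 led by another class (407 and 82 cells) were left out. MerTK+CCR2- cells (2770 and 404) had nuclear sums of 18338 at 0 h and 13629 at 6 h and mitochondrial parts of 3.11% and 6.86%. MerTK-CCR2+ cells (283 and 408) had nuclear sums of 20753 and 15747 and mitochondrial parts of 2.30% and 5.77%. Between libraries, 35 of 90 nuclear genes were lower and 3 higher in MerTK+CCR2- cells (all genes 13.5% and 27.0%), and 31 of 81 were lower and 2 higher in MerTK-CCR2+ cells (all genes 28.0% and 22.2%). The log2 ratios of the nuclear sum were −0.43 and −0.40. Different subclusters held most cells of a group in the 2 libraries. Of the MerTK+CCR2- cells at 6 h, 381 lay in subcluster 3, which had 16 cells at 0 h. Of the MerTK-CCR2+ cells, 249 at 0 h lay in subcluster 6 and 342 at 6 h in subcluster 4, which had 26 cells at 0 h. The nuclear sum was 14840 and 13453 within subcluster 3 and 25237 and 15927 within subcluster 4, so the difference was not alike within subclusters.

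Within a library, MerTK+CCR2- over MerTK-CCR2+ gave −0.18 [−0.20, −0.16] in nuclear and 0.43 in mitochondrial genes at 0 h, and −0.21 and 0.25 at 6 h. At 0 h 7 of 90 genes were higher and 8 lower (all genes 25.4% and 21.6%), and at 6 h 9 of 83 were higher and 9 lower (all genes 31.2% and 16.3%). The nuclear difference at 6 h changed sign without the mitochondrial limit (0.29) and with the respiratory genes allowed to build the clusters (0.11).

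Other mitochondrial gene lists were read beside these genes, mainly in macrophage/monocyte-like cells, where 19.2% of all genes were lower and 20.9% higher (29.0% and 24.2% in fibroblast-like cells). Of 35 compared genes for other respiratory chain proteins and assembly factors, 10 were lower and 2 higher, with a median of −0.02. Among 76 mitochondrial ribosomal proteins 18 were lower, a share near that of all genes, and 3 higher (−0.24). In NK-cell-like cells 20 of 38 of them were lower (all genes 16.9%), with a median of −0.67 against −0.51 for the respiratory genes. T-cell-like cells had 17 of 63 lower (all genes 9.77%), with −0.40 against −0.33. The tricarboxylic acid cycle, which feeds complexes I and II, had 1 of 13 lower and 4 higher in macrophage/monocyte-like cells (0.15), and there carriers of nucleotides and phosphate had 0 of 7 past the fold (0.18). Genes of mitochondrial transcription, replication and biogenesis had 2 of 22 lower and 4 higher in macrophage/monocyte-like cells (0.26), and in fibroblast-like cells 2 of 20 lower and 10 higher (0.51). A list of dissociation and stress genes had 3 of 11 lower and 2 higher in macrophage/monocyte-like cells (−0.33), and in fibroblast-like cells 8 of 11 lower (−1.57).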

How the data were processed

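Single-cell libraries of 8 samples (4 per condition, 3 hearts each) were made with Chromium kits; per the labels and submitters' notes, reads were processed with Cell Ranger on mm10, and the matrix header names version 3.1.0. The files deposited by the authors hold raw UMI counts of 27998 genes, with the samples of a condition pooled in 1 matrix. Cell Ranger keeps uniquely mapped reads, so genes with near-identical pseudogenes are uncertain. No sample column was left unused (0).

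Here, cells with 200 to 2500 genes and at most 30% mitochondrial UMIs were kept, 2000 variable genes without any respiratory or mitochondrial gene were reduced to 30 components, and cells were clustered by Leiden (30 neighbours, resolution 0.8, leidenalg 0.10.2, igraph 0.11.9) in Python 3.11.15 with numpy 2.4.6, scipy 1.17.1 and scikit-learn 1.9.0. A cluster was named where its markers' mean log2 fold over the median cluster was at least 1.5, with 3 markers in over 10% of cells. Where other classes scored within 1.2, the name went to the only class with markers (more than 1) among the 10 leading genes. If none had any there, it went to the highest score. Clusters with more leading markers of another class, or of low depth without their own, stayed unnamed. These rules were set and revised after the clusters were seen. Doublets were not removed (an alternative removed 0.8% per 1000 barcodes). Levels carry exact Poisson intervals, shares Clopper–Pearson and ratios conditional ones. Comparisons were checked on simulated data. With 1 library per condition there was no test. The genes named were the mitochondrial genes, isoform groups, core subunits and, per class, the 3 highest and 3 lowest ratios; other genes that passed the fold in many classes, with Ndufc2, Sdhaf4, Uqcr11 and the ATP synthase subunits, were chosen after their values were seen. The values of 1 gene are not reported here. The genes and lists were chosen with earlier results of these data known. Alternatives changed filters, doublets, naming, scale, the 50-UMI minimum and the fold. Transcript lengths came from GENCODE M21 (GRCm38).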

Additional observations from a re-analysis of the deposited data

Results flagged for a closer look

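Cox7a2l lay on opposite sides of 0 in different classes. Its log2 ratio of the 6 h to the 0 h level was 0.93 in NK-cell-like cells and −0.79 in fibroblast-like cells, a gap of 1.73 on the log2 scale. With 1 library per condition the difference between the classes was not tested.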

How the results depend on the processing

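No paired analysis was possible because the samples of a condition share 1 matrix, so replicate numbers could not be tied to cells and no sample could be left out. In the 8 classes, all 70 alternative nuclear ratios and all 62 mitochondrial ones kept their sign. Of 2417 alternative values of single genes, 102 had the other sign. Those of called genes were Sdhaf1 in neutrophil-like cells (−0.18, classes from each barcode's own marker UMIs) and, without the limit on genes per cell, Ndufa9 (0.20) and Ndufv1 (0.026) in fibroblast-like cells.

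The macrophage/monocyte-like nuclear ratio was −0.17 without the gene limit (3582 and 2218 cells), −0.41 at a 10% mitochondrial limit, −0.32 without likely doublets, −0.28 with respiratory genes among the variable genes, −0.37 by own markers, −0.29 as a mean over cells, −0.39 over all UMIs and −0.38 relative to the median gene. The mitochondrial ratio was in turn 0.72, 0.80, 1.02 and 0.99 for the first 4, 1.22 without the mitochondrial limit, 1.06 without subclusters led by another class (added after seeing the data), 1.17 as a mean over cells and 1.44 over the nuclear genes' UMIs. The 29 lower genes became 17 without the gene limit and 7 at 2-fold. In fibroblast-like cells (3655 and 1711 cells without the gene limit) the 39 lower genes became 22 and the ratios −0.22 and 0.46. No share of all genes was taken in these settings, so these counts have no background beside them. In pericyte-like cells at 0 h, Ndufa4l2 was 2223, 3141 and 3073, and Cox4i2 1673, 2380 and 2308, without the gene limit, without likely doublets and by own markers. MerTK+CCR2- over MerTK-CCR2+ gave −0.15 (no gene limit) and −0.14 (10% limit) at 0 h, and −0.24 (no gene limit), 0.29 (no mitochondrial limit) and 0.11 (respiratory genes allowed) at 6 h. In the last setting the 6 h macrophage/monocyte-like cells numbered 585 instead of 894. The median mitochondrial share per kept barcode was 3.44% (no gene limit) and 3.47% (10% limit) at 0 h, and 4.85%, 4.58% and, without the mitochondrial limit, 5.81% at 6 h. Why these values moved was not tested. At the 10% limit pericyte-like and endothelial-like cells, and without likely doublets endothelial-like cells, fell under 50 cells in a library and gave no value. Depth limits mainly NK-cell-like, pericyte-like and endothelial-like cells, with under 100 cells at 6 h.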
